A study of Mus musculus with 8 samples.

Results

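Astrocytes of the mouse prefrontal cortex (PFC) were compared with astrocytes of the striatum in 8 single-cell RNA-seq libraries. The members were all cells that the authors' annotation placed in the astrocyte group of either tissue, 1411 of 23687 annotated cells. Of these, 554 of 8997 came from PFC and 857 of 14690 from striatum. Each library held cells pooled from 2 male mice on a C57BL/6N background, aged 8 to 10 weeks by the labels (the methods give an older age). Each tissue had 2 wild-type (WT) and 2 Setd1a+/- libraries from untreated mice. Setd1a+/- mice carry 1 copy of Setd1a, a histone methyltransferase gene, disrupted by CRISPR-Cas9 in the germ line and therefore in every cell. The WT mice were their littermates. The striatal libraries are labelled NAc, for nucleus accumbens, while the methods describe dorsal and ventral striatum. Papain digestion was longer for striatum than for PFC, so that tissue, dissection and dissociation cannot be told apart. The values of a tissue are given below in the order WT replicate 1, WT replicate 2, Setd1a+/- replicate 1 and Setd1a+/- replicate 2, and every difference is striatum minus PFC.

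Astrocytes are the glial cells that take up glutamate, buffer potassium, couple to one another through gap junctions and supply neurons with cholesterol packed in ApoE particles. In the forebrain they arise from regionally patterned progenitors, those of the cortex from the pallium and most of those of the striatum from the subpallium, and they are known to keep part of that regional identity in the adult. Crym, which encodes the cytosolic thyroid hormone binding protein mu-crystallin, is a known gene of striatal astrocytes.

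The label was first tested against markers. The astrocyte genes Aqp4, Gja1, Slc1a2, Slc1a3 and Aldoc were abundant in all libraries, but part of the striatal group also carried RNA of ependymal cells, the ciliated cells that line the ventricles. Of 10 ependymal markers (among them Foxj1, the master regulator of motile cilia, and the ciliary genes Ccdc153 and Tmem212), UMIs from at least 3 were found in 65 of 857 striatal cells (7.58%) and in 0 of 554 PFC cells. By counting error alone, with cells pooled over libraries, the latter allows a share of up to 0.542%. These cells, called ependymal-like here, numbered 10, 12, 33 and 10 in the 4 striatal libraries, or between 3.88% and 32.3% of the annotated astrocytes, with the highest share in Setd1a+/- replicate 2. The distribution was split, with 20 cells at 9 markers and 25 at all 10, 5 cells at 3 or 4 markers just inside the threshold, and 24 striatal and 3 PFC cells at 2 markers just outside it. The threshold was set after the data were seen. In the ependymal-like cells the 5 astrocyte genes summed to 2218 to 4289 UMIs per 1e6 UMIs (CPM) per library, against 14100 to 17020 CPM in the remaining striatal cells and 18210 to 20110 CPM in PFC. Their 10 ependymal markers summed to 8357 to 10240 CPM, against 161.7 to 199.1 CPM in the remaining striatal cells and 42.7 to 113.6 CPM in PFC. The cells were picked by these 10 markers, so this second contrast is fixed by the selection, while the 5 astrocyte genes played no part in it. The ependymal-like cells had medians of 3482 to 9084 UMIs per cell per library, so that few cells gave a large share of the striatal UMIs. Going by the lower level of the 5 astrocyte genes, the astrocyte label did not hold for these cells. Results are given with these cells and without them (1346 cells, 792 of them striatal).

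**Figure D1:**
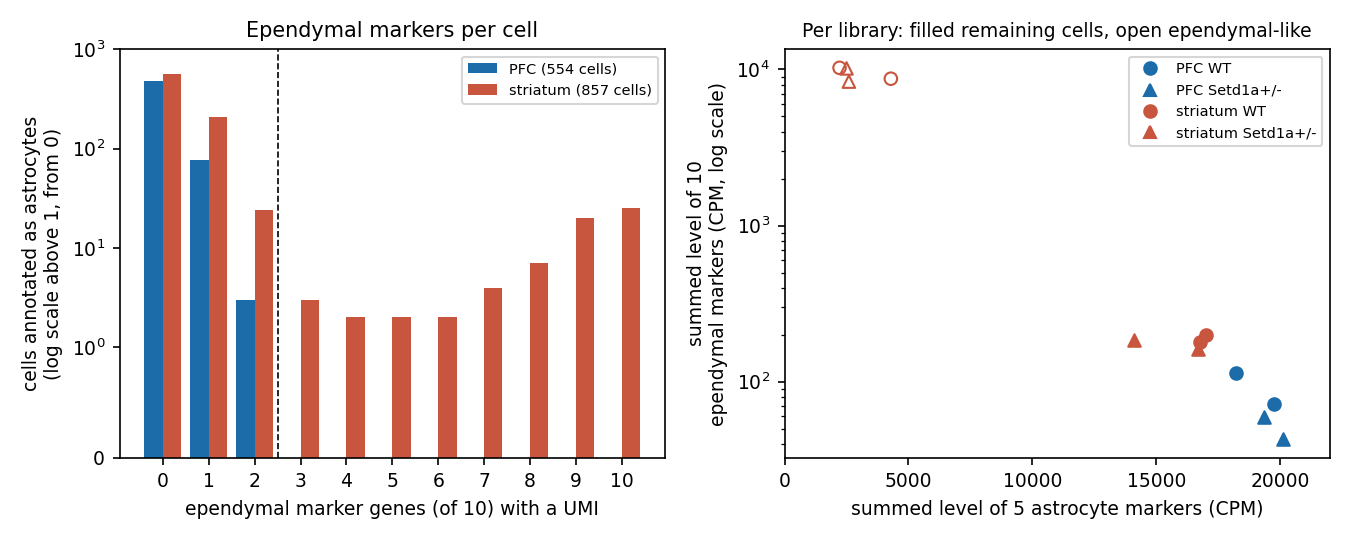
Left, number of cells annotated as astrocytes (y, linear to 1 and logarithmic above) by how many of 10 ependymal marker genes had a UMI (x), with PFC in blue and striatum in red and the dashed line at the threshold of 3. Right, summed level of the 10 ependymal markers (CPM, log axis) against that of 5 astrocyte markers (CPM) in each library, with remaining cells filled and ependymal-like cells open. The 65 cells to the right of the line are all striatal, and as sums they lie at 8357 to 10240 CPM of the ependymal markers by which they were picked.

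The astrocytes of a library gave 94178 to 887706 UMIs in all, and 48708 to 667699 without the ependymal-like cells. Striatum Setd1a+/- replicate 2 was the smallest, with 31 astrocytes and 21 of them remaining. Pairs of libraries shared 1 to 24 annotated barcodes, where 4.47 to 23.9 would be shared by random draws from the barcode list, and no pair shared more than 1 astrocyte barcode. Astrocytes made up 6.60% ± 3.72 (SD, n = 4) of annotated PFC cells and 5.45% ± 3.32 (n = 4) of striatal cells, a difference within the spread between libraries (exact permutation test over 70 splits, two-sided, p = 0.686, smallest possible 0.0286). The median UMIs per astrocyte, averaged over libraries, were 1964 ± 166 and 2049 ± 194 (SD, n = 4 each; exact permutation test, p = 0.543). The median mitochondrial share of UMIs per library was 3.42% to 4.87% in PFC and 4.54% to 6.38% in striatal astrocytes, and summed red blood cell genes ranged from 14.7 to 2914 CPM in PFC and from 42.9 to 15360 CPM in the remaining striatal cells; their part in the results was not tested. Setd1a itself was too sparse to test the genotype labels, at 0, 7.33, 8.55 and 5.42 CPM in PFC astrocytes and 13.7, 2.04, 13.5 and 10.6 CPM in striatal astrocytes, and 3′ counts do not report a small deletion inside the transcript.

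UMIs were summed per library and tested with edgeR's quasi-likelihood test with genotype as a covariate, and a gene was called at a Benjamini-Hochberg false discovery rate (FDR) under 0.05 with a change above 1.5-fold. Over all annotated astrocytes 530 of 5090 genes were called (10.4%), 329 higher in striatum (6.46%) and 201 higher in PFC (3.95%). Without the ependymal-like cells 104 of 4742 genes were called (2.19%), 46 higher in striatum (0.97%) and 58 higher in PFC (1.22%), and 96 of these 104 were among the 530 with the same direction (18.1% of the larger set and 92.3% of the smaller). Of the 288 striatal calls that were lost, 164 were more than 4-fold higher in the ependymal-like cells than in the remaining striatal astrocytes, against 7 of the 41 that were kept and 320 of all 5090 genes tested (6.29%), a description only, since the lost calls were picked by the removal of these cells. The removal also lost 146 of the 201 PFC calls and kept 55. Among the remaining calls, the CPM of the 2 tissues did not overlap in 42 of the 46 striatal and 53 of the 58 PFC genes, where non-overlap was found in 10.4% of all genes tested. A call between 4 and 4 libraries nearly entails non-overlap, so this count describes the calls and adds no support to them. Single libraries weighed on the counts. The 530 became 306 without striatum WT replicate 1 and 343 without striatum Setd1a+/- replicate 1, and the 104 became 45 without PFC WT replicate 1, 52 without striatum WT replicate 1 and 47 without striatum WT replicate 2. With the biological replicate as a block within tissue, which the methods support since each replicate held 1 WT and 1 mutant sample, 384 genes were called without the ependymal-like cells, including all 104.

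Free RNA was measured in barcodes with 1 to 50 UMIs of the same libraries, which hold 767117 to 2530808 UMIs per library and carry RNA of lysed cells of all types, astrocytes included. For 280 of 4742 genes (5.9%) the tissue difference in the remaining astrocytes differed from that in these barcodes at FDR under 0.05. For 269 (5.67%) it differed, in 1 fit, from the mean of the tissue differences of oligodendrocytes, oligodendrocyte progenitors, microglia and endothelial cells. With the ependymal-like cells included these numbers were 648 of 5090 (12.7%) and 789 (15.5%). Below, a difference from the other types is one from this mean and not from each type. Of the 46 striatal calls, 11 differed from free RNA and 12 from the other types in the direction of the call, against backgrounds of 3.73% and 2.43%, and 4 did both. Of the 58 PFC calls the numbers were 12, 25 and 9, against backgrounds of 2.17% and 3.25%. The calls were chosen for a large difference in the same direction, which raises these counts by construction, and nothing is read from their distance to the backgrounds. Because a gene that astrocytes alone express has the same tissue difference in their own free RNA, a value near 0 in the comparison with free RNA does not bear on whether the astrocytes express it, and the level in astrocytes relative to free RNA is given beside it.

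Crym (ENSMUSG00000030905, GRCm38 chr7:120186380-120202111) was followed first, without the ependymal-like cells. It had the largest difference toward striatum among the genes named because they differed from free RNA and were in no marker list of another cell type. It stood at 0, 18.3, 0 and 5.42 CPM in PFC astrocytes and at 2374, 1754, 2085 and 1129 CPM in the remaining striatal astrocytes. All striatal libraries lay far above all PFC libraries, and the fitted difference was 8.17 ± 0.48 (log2, SE; edgeR FDR = 6.6e-08), or 344-fold from the pooled counts of 7 and 3384 UMIs (95% interval 167 to 857, counting error only). It was called in each of 24 alternative settings, with 7.50 to 9.45 when any 1 library was left out. Low in PFC, Crym could pass the filter on low counts through striatum alone. Its direction, though not its size, was thus largely fixed in advance.

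Striatal astrocytes had the highest Crym level of all cell types compared. In striatum Crym averaged 379 ± 34.8 CPM in D1 and 329 ± 26.6 CPM in D2 medium spiny neurons, 126 ± 57.2 CPM in microglia, 81.0 ± 30.3 CPM in endothelial cells, 38.2 ± 22.8 CPM in oligodendrocytes and 346 ± 51.6 CPM in free RNA (SD, n = 4 each). In PFC it averaged 303 ± 63.5 CPM in excitatory neurons and 212 ± 36.6 CPM in free RNA, while astrocytes, microglia, oligodendrocytes and endothelial cells had means of 3.85 to 8.83 CPM. Striatal astrocytes held 3.74 to 5.80 times the free RNA of their own library and PFC astrocytes at most 0.075 times. The tissue difference of Crym exceeded that of the other non-neuronal types by 5.57 on the log2 scale (FDR = 8.7e-07). With each cell thinned to 1000 UMIs, Crym was detected in 384 of 792 striatal astrocytes (48.5%, Wilson 95% interval 45.0 to 52.0) and in 4 of 554 PFC astrocytes (0.722%). The interval covers counting error over pooled cells and not the spread between libraries. In microglia, a type that should lack it, Crym was detected in 5.90% of striatal and 0.622% of PFC cells. Unthinned, the astrocyte shares were 54.5% and 1.26%. The median depth per library was 1744 to 2234 UMIs in these astrocytes and 1980 to 2748 UMIs in microglia.

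**Figure D2:**
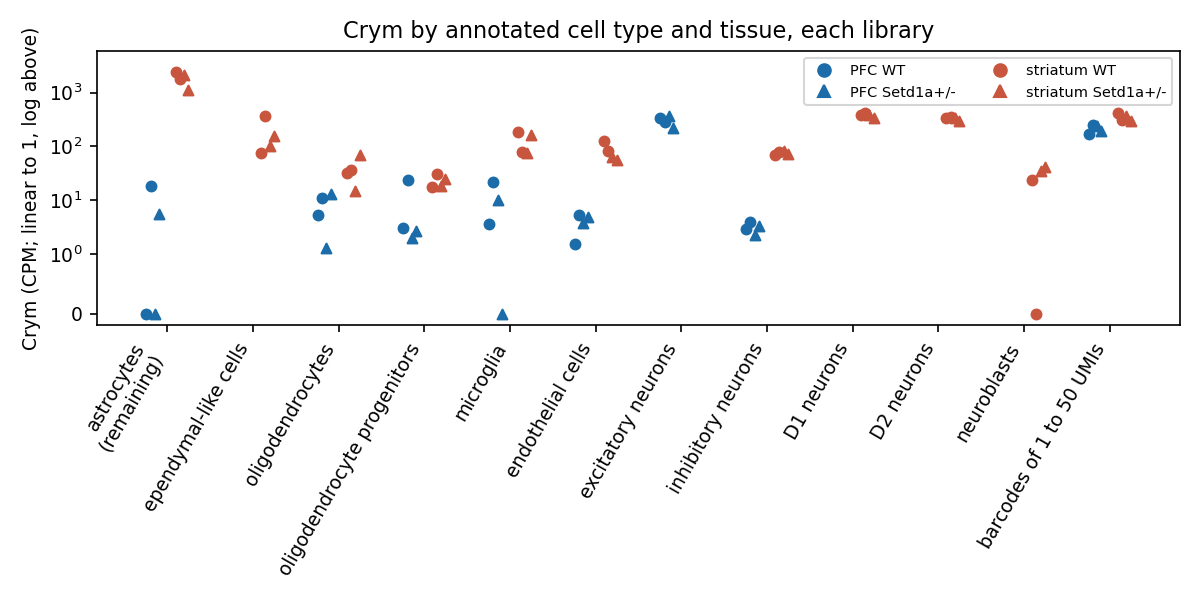
Crym in each library (y, CPM, linear to 1 and logarithmic above) by annotated cell type and in barcodes of 1 to 50 UMIs (x), with PFC in blue, striatum in red, WT as circles and Setd1a+/- as triangles. The remaining striatal astrocytes at 1129 to 2374 CPM stand above every other group, and the PFC astrocytes at 0 to 18.3 CPM lie below PFC free RNA.

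Further genes were higher in striatal astrocytes at lower levels. Of 38 called genes followed in both directions, of which Slc25a18 and Apoe were singled out after their values were seen, 19 kept their call when any 1 library was left out. Cyba, which encodes the p22phox subunit of NADPH oxidase, stood at 2.41, 11.0, 8.55 and 16.3 CPM in PFC and at 112, 86.0, 79.4 and 41.1 CPM in striatum (difference 3.15 ± 0.42, FDR = 6.7e-04), a tissue difference that exceeded that of the other non-neuronal types by 3.79 (FDR = 1.5e-05). The forebrain homeobox gene Six3 (chr17:85613608-85629302), a subpallial patterning factor, had no UMI in any PFC library and 40.9, 52.0, 41.9 and 82.1 CPM in striatum, at least 17.8-fold higher against a floor of 3 UMIs over the PFC group (edgeR FDR = 6.7e-04). Riiad1 stood at 12.1, 14.7, 8.55 and 10.9 CPM against 87.8, 70.1, 52.4 and 61.6 CPM (2.45 ± 0.33). For these 3 genes the tissues did not overlap, and the calls held when any 1 library was left out. All 3 were low in PFC and could pass the filter on low counts through striatum alone. Their direction was thus largely fixed in advance, and the non-overlap adds no support. Riiad1 was also abundant in the ependymal-like cells, and the summed ependymal markers of the remaining cells were still higher in striatum than in PFC, with Rarres2 called at 1.32 ± 0.25 (FDR = 0.0091). The part of remaining ependymal RNA in the Riiad1 difference was not tested.

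From 30 genes listed as regional in astrocytes, 23 could be tested (median -0.31, all genes -0.01). Of these 4 were higher in striatum (0.97% of all genes) and 3 in PFC (1.22% of all genes). The striatal ones were Crym, the imprinted proteolipid gene Nnat, the secreted matrix protein gene Sparc and the calcium-binding protein gene S100a6. Nnat stood at 60.3, 158, 94.0 and 75.9 CPM in PFC and 278, 359.8, 225 and 226 CPM in striatum (1.51 ± 0.26, FDR = 0.0057), a call that stood at FDR = 0.0503 without striatum WT replicate 2 and was lost with free RNA subtracted (1.08, FDR = 0.193). Nnat in striatal astrocytes was at 0.397 to 0.769 times its level in free RNA. The pan-neuronal list given below was at 0.172, 0.222, 0.119 and 0.432 in these libraries. Nnat thus lay above that list in both WT libraries and in Setd1a+/- replicate 1. Sparc stood at 84.5, 106, 128 and 54.2 CPM against 202, 186, 234 and 226 CPM (1.23 ± 0.24, FDR = 0.011), more than in the other non-neuronal types by 1.35. The Sparc call rose past the threshold, to FDR values between 0.0511 and 0.0658, without PFC WT replicate 1, PFC Setd1a+/- replicate 2, striatum WT replicate 1 or striatum Setd1a+/- replicate 1. S100a6 (0.86 ± 0.21, FDR = 0.046) was lost when any of 6 libraries was left out, at an FDR of up to 0.202 without striatum WT replicate 1.

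**Figure D3:**
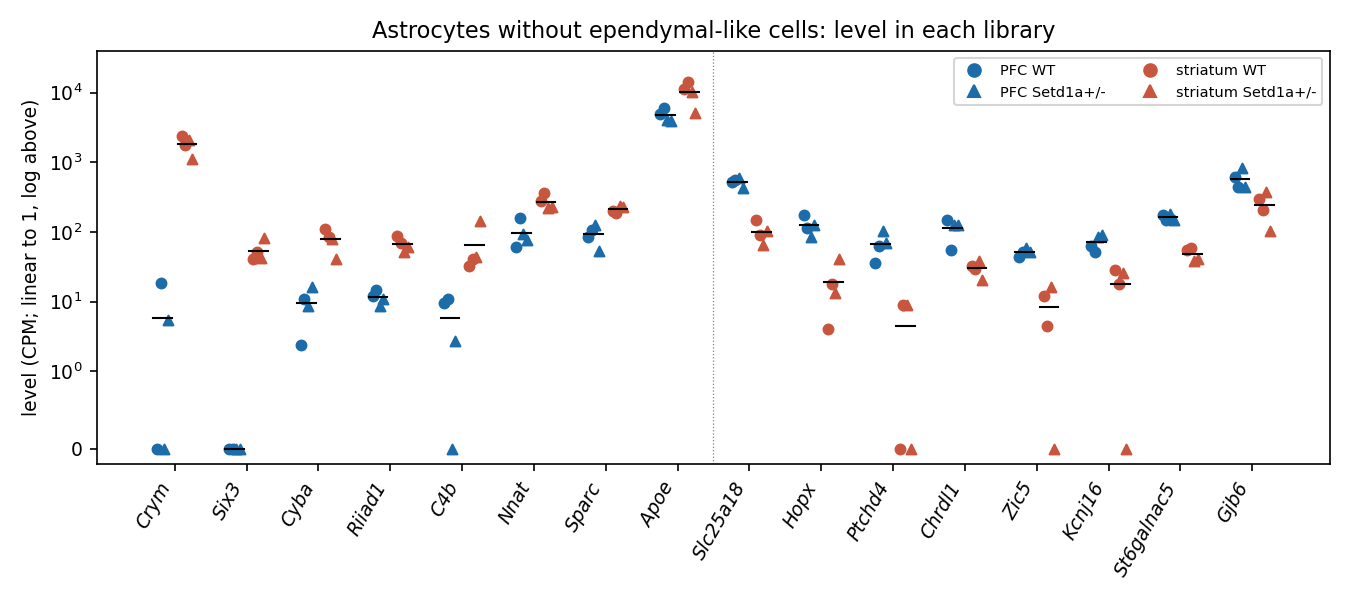
Level in the remaining astrocytes of each library (y, CPM, linear to 1 and logarithmic above) for genes higher in striatum (left of the dotted line) and in PFC (right), with the tissue mean as a bar, PFC in blue, striatum in red, WT as circles and Setd1a+/- as triangles. Crym, Six3, Cyba and Riiad1 show no overlap between tissues, and the striatum Setd1a+/- replicate 2 library, with 21 cells, lies apart in C4b at 144 CPM.

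The complement gene C4b was the 1 called member of 7 tested reactive astrocyte genes (median 0.08, with 0.97% of all genes called higher in striatum). It had 9.65, 11.0, 0 and 2.71 CPM in PFC and 32.7, 40.7, 43.4 and 144 CPM in striatum (2.61 ± 0.54, FDR = 0.017). The tissues did not overlap, but the FDR was 0.0549 without PFC WT replicate 1, 0.0912 without PFC Setd1a+/- replicate 2 and 0.0921 without striatum WT replicate 2. Low in PFC, C4b could also pass the filter on low counts through striatum alone, so its direction was largely fixed in advance. Gfap, the intermediate filament gene of reactive astrocytes, stood at 21.7, 158, 8.55 and 48.8 CPM in PFC and 73.5, 56.6, 71.9 and 61.6 CPM in striatum and was not called (FDR = 0.96). The free RNA of C4b was low, and striatal astrocytes held 3.79 to 28.7 times its level there.

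Neuronal RNA moved with the tissue as well, and 11 of the 46 striatal calls were members of the marker lists of other cell types, against 0 of the 58 PFC calls and 49 of all 4742 genes tested (1.03%). Of 16 pan-neuronal markers 10 could be tested and 2 were higher in striatum (Meg3 and Nsg2; median 0.81), and of 18 cortical excitatory markers 7 and 1 (Hpca; 0.17). The share of all genes called higher in striatum, 0.97%, stands beside these counts and those of the next list. Of 22 medium spiny neuron markers 10 could be tested, and 7 of these were higher in striatal astrocytes (median 4.52). Among them were Six3, Penk, Tac1, Pde1b, Rgs9 and Ppp1r1b. Besides Six3 those named are genes of opioid and tachykinin peptides and of cyclic nucleotide or dopamine signaling. Markers low in PFC could pass the count filter through striatum alone, so the direction of these calls was largely fixed in advance. Penk, the proenkephalin gene of D2 neurons, had 1 UMI in PFC astrocytes and 225, 188, 123 and 780.2 CPM in striatum, a pooled ratio of 223 with an interval of 39.7 to 8828. Tac1, the substance P gene of D1 neurons, had 3 UMIs in PFC and 123, 371, 52.4 and 349 CPM in striatum, a pooled ratio of 65.5 with an interval of 22.2 to 319.5. Beside these, the summed medium spiny neuron markers were at 342 to 545 CPM in PFC and 1062 to 3778 CPM in striatum, with 9 of the 22 at 0 in PFC, and the summed pan-neuronal markers were at 418 to 1074 and 1116 to 4722 CPM. No member was called of 2 tested interneuron, 5 neural stem cell and neuroblast, 6 oligodendrocyte, 1 microglia, 5 endothelial and mural and 1 red blood cell markers, and no oligodendrocyte progenitor marker could be tested.

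Relative to the free RNA of the same striatal library, the pan-neuronal list was at 0.119 to 0.432 and the medium spiny neuron list at 0.122 to 0.406. Penk was at 0.0692 to 0.437 and Tac1 at 0.037 to 0.288, and both lay below free RNA in every library. Crym (3.74 to 5.80), Riiad1 (3.36 to 10.8) and C4b lay above free RNA in all 4 libraries. Cyba was at 1.15 to 2.01, Sparc at 0.934 to 1.81 and Six3 at 0.849 to 1.70, around the level of free RNA and above the range of both neuron lists in every library. The RIKEN gene 6330403K07Rik, at 29.0, 260.3, 59.8 and 51.5 CPM in PFC and 376, 1129, 431 and 964.9 CPM in striatum, was also called (2.81 ± 0.52, FDR = 0.0069), and not without striatum WT replicate 2 (FDR = 0.0871). A free RNA profile was also scaled by the pan-neuronal list and subtracted from each library. The scale was 0.0461 to 0.0883 in PFC and 0.119 to 0.432 in striatum. It removed 4.09% to 8.30% of astrocyte UMIs in PFC libraries and 11.1% to 35.6% in striatal ones. After the subtraction 70 genes were called, and 54 of the 84 earlier calls that could still be tested remained. Besides Nnat, the calls of Gjb6, Kcnj16, Car2 and Hsp90aa1 were lost in that setting.

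**Figure D4:**
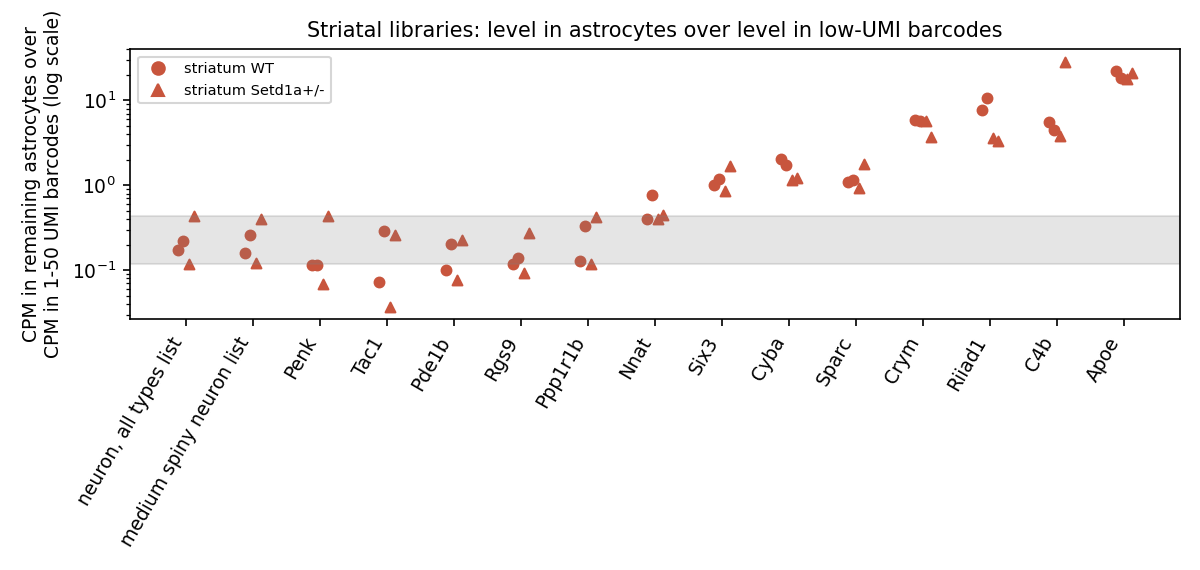
Level in the remaining striatal astrocytes over that in barcodes of 1 to 50 UMIs of the same library (y, ratio, log axis), for the pan-neuronal and medium spiny neuron marker lists and for genes higher in striatal astrocytes (x), with WT as circles and Setd1a+/- as triangles. The grey band is the range of the pan-neuronal list, 0.119 to 0.432; Penk, Tac1, Pde1b, Rgs9 and Ppp1r1b lie in it or near it, Six3 lies above it at 0.849 to 1.70, and Crym and Apoe lie far above.

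Among genes higher in PFC, the mitochondrial glutamate carrier gene Slc25a18 (chr6:120773578-120794336) had the smallest FDR, and it was singled out after its values were seen. It stood at 526, 549.9, 589.6 and 434 CPM in PFC and 149, 90.5, 64.4 and 103 CPM in striatum (-2.45 ± 0.23, edgeR FDR = 2.4e-05), or 5.46-fold higher in PFC. The tissues did not overlap, and the call held in each of 24 alternative settings. With cells thinned to 1000 UMIs it was detected in 38.3% of PFC and 8.59% of striatal astrocytes, against 1.04% and 0% of microglia. Slc25a18 was at 12.5 to 36.1 times its free RNA level in all 8 libraries. It was not among the genes whose tissue difference differed from that in free RNA or in the other non-neuronal types at FDR under 0.05.

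The patterning genes gave calls in both directions. Over all genes tested 1.22% were called higher in PFC and 0.97% higher in striatum. Hopx (chr5:77086988-77115121), a homeodomain-only gene expressed in pallial radial glia, stood at 176, 114, 85.5 and 125 CPM in PFC and 4.09, 18.1, 13.5 and 41.1 CPM in striatum (-3.33 ± 0.38, FDR = 2.4e-04) and was the 1 called member of 7 tested pallial factors (median -0.25). Pax6 (-0.62, FDR = 0.25) and Emx2 (-0.80, FDR = 0.22), both pallial, were not called. Of 28 subpallial factors 4 could be tested, with Six3 higher in striatum and the zinc finger gene Zic5 higher in PFC, at 43.4, 51.3, 59.8 and 51.5 CPM against 12.3, 4.53, 16.5 and 0 CPM (-2.13 ± 0.38, FDR = 0.0062). Hopx, Zic5 and Six3 kept their calls when any 1 library was left out. Zic5 was low in striatum and Six3 in PFC, so each could pass the filter on low counts through the other tissue alone. The directions of Zic5 and Six3 were thus largely fixed in advance. None of Hopx, Zic5 and Six3 differed from free RNA or from the other non-neuronal types in the direction of the call at FDR under 0.05. Six3 is also in the list of medium spiny neuron markers.

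Among 23 tested regional genes, 3 were higher in PFC (Chrdl1, Thrsp and Unc13c), beside 1.22% of all genes, and further genes came from the largest differences. Ptchd4, of the patched family, stood at 36.2, 62.3, 103 and 70.5 CPM in PFC and 0, 9.05, 8.99 and 0 CPM in striatum (-3.31 ± 0.49, FDR = 0.0015). Low in striatum, Ptchd4 could pass the filter on low counts through PFC alone, so its direction was largely fixed in advance. The sialyltransferase gene St6galnac5 stood at 174, 147, 179 and 149 CPM against 55.2, 58.8, 38.9 and 41.1 CPM (-1.73 ± 0.23, FDR = 6.7e-04). Their free RNA was not lower in striatum, and the astrocyte difference minus that of free RNA was -4.33 for Ptchd4 and -1.78 for St6galnac5, and minus that of the other non-neuronal types it was -5.30 and -2.56. Chrdl1, a secreted BMP antagonist by which cortical astrocytes promote synapse maturation, stood at 147, 55.0, 128 and 125 CPM against 32.7, 29.4, 38.9 and 20.5 CPM (-1.77 ± 0.31, FDR = 0.0051). The lipogenic regulator gene Thrsp (-1.14 ± 0.21, FDR = 0.0065) and the microRNA host gene Mir124-2hg (-1.48 ± 0.22, FDR = 0.0018) were also higher in PFC. The call of the presynaptic priming gene Unc13c (-1.84 ± 0.40, FDR = 0.023) was lost without PFC WT replicate 1 (-1.31, FDR = 0.227) and without 4 other libraries, PFC Setd1a+/- replicate 2 and all striatal ones but Setd1a+/- replicate 2, at FDR values from 0.0657.

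Cholesterol synthesis was the gene list with most calls toward PFC. Of 25 genes of cholesterol synthesis and lipoproteins 22 could be tested; 11 were higher in PFC astrocytes (1.22% of all genes), 1 (Apoe) was higher in striatum (0.97%), and the median was -0.96 against -0.01 for all genes. Those named here span the pathway from its early steps to its late sterol reactions and its control: Hmgcs1 (mevalonate synthesis), Idi1, Fdft1 and Sqle (from isoprenoids to squalene epoxide), Cyp51, Msmo1, Nsdhl and Sc5d (sterol demethylation and desaturation), and Insig1 (feedback). Cyp51 stood at 249, 154, 162 and 222 CPM in PFC and 44.9, 61.1, 40.4 and 61.6 CPM in striatum (-2.07 ± 0.25, FDR = 3.9e-04). Hmgcs1 stood at 502, 293, 572.5 and 575 CPM against 131, 169.7, 136 and 123 CPM (-1.74 ± 0.22, FDR = 6.3e-04). Msmo1 stood at 1366, 964, 1384 and 1570 CPM against 494, 529.5, 488 and 246 CPM (-1.53 ± 0.23, FDR = 0.0018). The tissues did not overlap for 10 of the 11 genes, against 10.4% of all genes, which a call nearly entails. Sqle, Cyp51, Hmgcs1 and Msmo1 kept their calls when any 1 library was left out. In astrocytes 16 of the 22 genes had a negative difference. In free RNA 16 of 22 did too, with a median of -0.63, 10 called lower (10.3% of all genes there) and 1 called higher (8.76%). In oligodendrocytes the median was -0.37 and 4 of 20 were called lower (1.36% of all genes). It was -0.28 with 0 of 19 in oligodendrocyte progenitors (0.0394%), -0.35 with 0 of 6 in microglia (8.95%) and -0.09 with 1 of 21 in endothelial cells (1.17%), where 2 were called higher (4.88%) and 11 of 21 had a negative difference. Against the other non-neuronal types the astrocyte difference was larger for 7 of the 12 called genes (5.67% of all genes in either direction). Against free RNA it was larger for Cyp51 (-1.31, FDR = 0.0037), beside 5.9% of all genes. The 12 were chosen for a large difference, which raises these counts by construction. For Hmgcs1 the fitted difference in free RNA was -1.65, close to that in astrocytes.

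**Figure D5:**
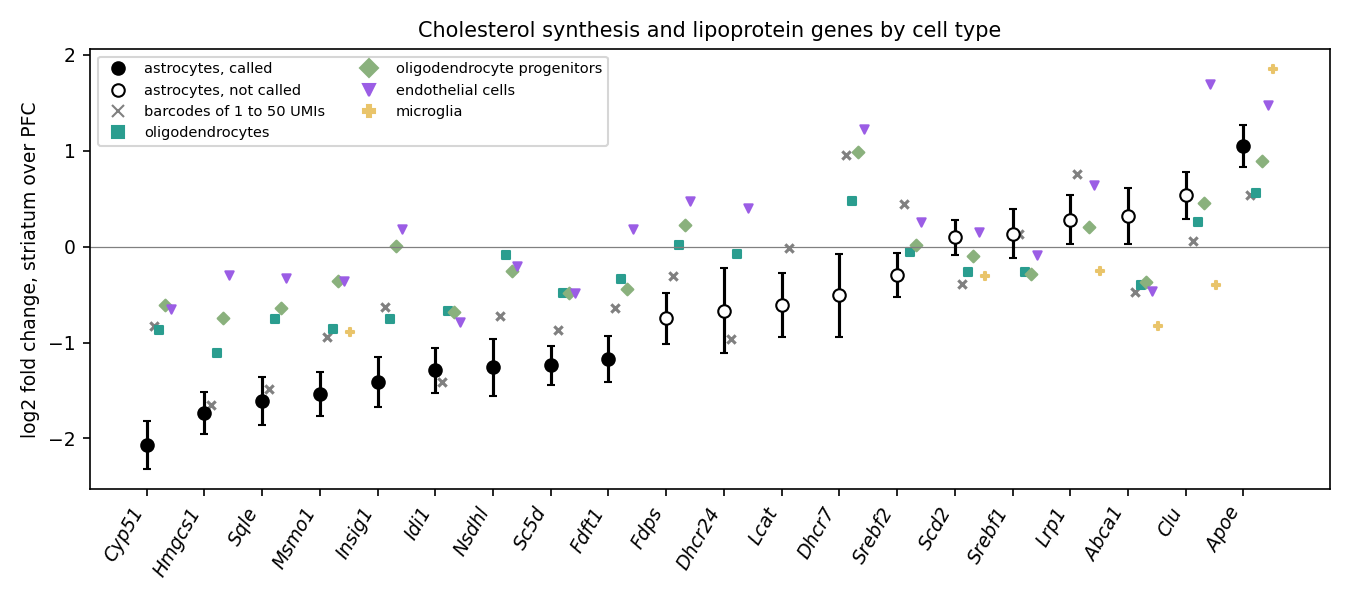
Tissue difference (y, log2 fold change of striatum over PFC) of 20 genes of cholesterol synthesis and lipoproteins (x), with the remaining astrocytes as circles with SE bars, filled where called, and with free RNA and the other non-neuronal types as coloured marks. Astrocytes show the lowest value of the cell types for Cyp51 (-2.07), Hmgcs1 (-1.74) and Msmo1 (-1.53), while Apoe lies at 1.05.

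Sterol synthesis genes are known targets of the factor SREBP, whose sites often lie close to CCAAT boxes bound by NF-Y, so the promoters of called genes are shown. In RefSeq on GRCm38.p6, 7 of the 11 genes higher in PFC had a promoter entry (Cyp51, Hmgcs1, Idi1, Insig1, Msmo1, Nsdhl and Sc5d). All 7 held CCAAT on either strand in the 250 bases upstream of the start, as did 33.9% of 32851 promoters of that length, and 1 (Hmgcs1) held the sterol element TCACNCCAC on either strand, as did 1.05% of promoters. Of 6 tested members that were not called and had an entry, 3 held CCAAT and 0 the sterol element. A match is a run of letters and no measured binding. The 3 promoters printed were picked for the most matches, with 3 CCAAT in Hmgcs1, 3 in Msmo1 and 2 in Idi1. Nsdhl also held 2, and Cyp51, Insig1 and Sc5d held 1 each. The promoters of Hmgcs1 (chr13:119690101-119690350, plus strand), Msmo1 (chr8:64733579-64733828, minus strand) and Idi1 (chr13:8885356-8885605, plus strand) follow 5′ to 3′ in the direction of the gene, with CCAAT or its reverse ATTGG and the sterol element in capitals.
Hmgcs1: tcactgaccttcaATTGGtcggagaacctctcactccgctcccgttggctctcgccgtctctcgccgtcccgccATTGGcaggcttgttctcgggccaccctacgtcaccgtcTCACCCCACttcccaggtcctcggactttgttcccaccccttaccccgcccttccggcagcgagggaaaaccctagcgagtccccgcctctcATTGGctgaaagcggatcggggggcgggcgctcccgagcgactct
Msmo1: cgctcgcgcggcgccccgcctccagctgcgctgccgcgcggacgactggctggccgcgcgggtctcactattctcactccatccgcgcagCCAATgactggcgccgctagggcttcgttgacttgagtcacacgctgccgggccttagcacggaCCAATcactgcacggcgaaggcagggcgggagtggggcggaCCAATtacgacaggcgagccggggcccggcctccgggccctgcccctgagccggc
Idi1: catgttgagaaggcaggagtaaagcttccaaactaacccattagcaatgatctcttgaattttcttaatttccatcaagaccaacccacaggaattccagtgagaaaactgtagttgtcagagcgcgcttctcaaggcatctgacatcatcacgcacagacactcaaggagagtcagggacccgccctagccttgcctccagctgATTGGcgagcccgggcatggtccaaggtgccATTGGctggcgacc

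Apoe, the gene of the main lipoprotein of astrocytes, was singled out after its values were seen and went the other way from the synthesis genes. It stood at 4904, 6038, 4101 and 3899 CPM in PFC and 11210.0, 14110.0, 10090.0 and 5194 CPM in striatum (1.05 ± 0.22, FDR = 0.018), with Setd1a+/- replicate 2 inside the PFC range. With the ependymal-like cells included it was not called (0.75, FDR = 0.083). Without them the call was lost without PFC WT replicate 1 or any striatal library but Setd1a+/- replicate 2, at FDR values of 0.0511 to 0.114. Striatal astrocytes held 17.9 to 21.9 times the Apoe level of free RNA. The fitted Apoe difference was also positive in microglia (1.85), endothelial cells (1.48), oligodendrocyte progenitors (0.89), oligodendrocytes (0.56) and free RNA (0.54). Clu, a second astrocyte apolipoprotein gene (0.54, FDR = 0.29), the cholesterol exporter gene Abca1 (0.32, FDR = 0.63), the receptor gene Lrp1 (0.28, FDR = 0.64) and Srebf2, the gene of the SREBP that drives sterol synthesis (-0.30, FDR = 0.57), were not called.

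All 25 genes of astrocyte identity were tested and 1, the gap junction gene Gjb6, was called (median -0.25), where 2.19% of all genes were called. The glutamate transporter gene Slc1a2 stood at 3309, 3149, 3512 and 3398 CPM in PFC and 3877, 2944, 3924 and 3182 CPM in striatum (0.03 ± 0.18, FDR = 0.97). Slc1a3, the second glutamate transporter gene, stood at 3844, 3219, 2965 and 3598 CPM against 2508, 2247, 2465 and 1458 CPM, without overlap, and was not called (-0.67, FDR = 0.11). Neither were Gja1 (-0.50, FDR = 0.17), Aldoc (-0.25, FDR = 0.50) or the glutamine synthetase gene Glul (-0.44, FDR = 0.26). Gjb6, which encodes connexin 30, stood at 608, 444, 820.3 and 442 CPM against 302, 206, 371 and 103 CPM (-1.07 ± 0.26, FDR = 0.046). Its call was lost without PFC WT replicate 1, PFC Setd1a+/- replicate 1, striatum WT replicate 1 or striatum WT replicate 2, at FDR values from 0.1 to 0.215.

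The functional lists had mostly negative medians, and their counts of calls stand beside 2.19% of all genes called. The share of UMIs taken as free RNA was larger in striatal than in PFC libraries, as given above. Its part in these medians and in that of the identity list was not tested. Of 11 tested genes of glutamate handling 1 was called, the AMPA receptor subunit gene Gria2 (-0.85 ± 0.20, FDR = 0.03; list median -0.44), at 591, 630.5, 589.6 and 643 CPM against 304, 362, 295 and 534 CPM. Its call was lost in the omission of any of 6 libraries, at up to FDR = 0.182 without striatum WT replicate 1. Of 14 genes of potassium, water and pH homeostasis 2 were called (median -0.37), the inward rectifier gene Kcnj16 at 62.7, 51.3, 85.5 and 92.2 CPM against 28.6, 18.1, 25.5 and 0 CPM (-1.61 ± 0.32, FDR = 0.013) and the carbonic anhydrase gene Car2 (-0.83 ± 0.19, FDR = 0.028). Kcnj16 missed the threshold in 4 omissions (FDR 0.0524 without PFC WT replicate 1, 0.0704 without PFC Setd1a+/- replicate 2, 0.0825 without striatum WT replicate 2 and 0.0876 without striatum Setd1a+/- replicate 1) and Car2 in 6 (up to 0.105, without striatum WT replicate 1). Kcnj10, the main astrocyte potassium channel gene, stood at 104, 143, 179 and 103 CPM against 57.2, 61.1, 67.4 and 0 CPM and was not called (-1.12, FDR = 0.071). No gene was called among 14 of GABA and glycine handling (median -0.18), 8 neuromodulator and purine receptors (-0.35), 21 of Notch, BMP, Hedgehog and Wnt signaling (-0.20), 18 of glycolysis and lactate (0.15) and 3 metallothioneins (0.20). Of 18 synaptogenic and matrix genes Sparc and Chrdl1 were called, in opposite directions (-0.15).

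The 12 tested immediate early and dissociation genes had a median of -0.23 and 1 call, where 2.19% of all genes were called. The call was that of the chaperone gene Hsp90aa1 (0.92 ± 0.19, FDR = 0.015). It was lost without PFC WT replicate 1, PFC Setd1a+/- replicate 2 or striatum WT replicate 1, at FDR values of 0.061 to 0.1. With the ependymal-like cells included, 18 genes of that list were tested (median 0.64). Of these 5 were higher in striatum (6.46% of all genes) and 3 in PFC (3.95% of all genes). The metallothionein gene Mt3 stood at 9.65, 4707, 8.55 and 3984 CPM in PFC and 5166, 4059, 5558 and 3408 CPM in striatum. Both PFC replicate 1 libraries were near 0 while the other 6 libraries were not, so that Mt3 split the PFC libraries by replicate and not by genotype.

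The ependymal-like cells moved the lists of the full comparison. In that comparison 6.46% of all genes were called higher in striatum and 3.95% higher in PFC. Over all annotated astrocytes 9 of 9 tested ependymal markers were higher in striatum, with a median of 6.14. These markers were low in PFC and could pass the count filter through striatum alone, so that the direction was largely fixed in advance. Ccdc153, with 0 UMIs in PFC astrocytes, averaged 412 ± 206 CPM in striatum (SD, n = 4) and 1797 ± 282 CPM in the ependymal-like cells. Of the 12 genes that the naming rule gave for striatum in this fit, Crym was 1, and the others included the ciliary genes Efcab1, Dnah5, Rsph1 and Meig1. Rsph1, a radial spoke gene, was at 810.5 ± 187 CPM in the ependymal-like cells and at 1.52 CPM on average in PFC astrocytes. In the full comparison 8 of 25 identity genes were called lower in striatum (median -0.44), among them Gja1 (-0.71, FDR = 0.034) and Slc1a3 (-0.92, FDR = 0.017), and of the 8 Gjb6 alone was called once these cells were left out. The cholesterol list had 11 PFC calls of 21 tested with these cells (median -1.11) and 11 of 22 without them.

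The genotype effect was compared between the tissues as an interaction. Of 5090 genes 0 were called at FDR under 0.05 by edgeR (0%) and 0 by DESeq2, while 135 had an unadjusted p under 0.05 (2.65%); without the ependymal-like cells 0 of 4742 were called (0%) and 70 had such a p (1.48%). Without the filter on low counts 2 genes were called over all annotated astrocytes, the globin gene Hbb-bt (FDR = 4.1e-04) and the neuropeptide gene Npy (FDR = 0.0024), both named after their values were seen. Summed red blood cell genes stood at 7953 CPM in striatum Setd1a+/- replicate 2 and 2914 CPM in PFC Setd1a+/- replicate 1, against 14.7 to 191 CPM elsewhere. Summed interneuron markers stood at 766 CPM in PFC WT replicate 2, against 31.4 to 54.2 CPM in the other PFC libraries. The part of these libraries in the 2 calls was not tested. The groups held 2 libraries each. With the filter and without the ependymal-like cells the smallest unadjusted p was that of Mynn, a zinc finger gene, with an interaction of 3.02 ± 0.81 (edgeR FDR = 1.0).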

How the data were processed

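Single-cell RNA-seq UMI counts of 8 droplet libraries were analysed. The deposited counts were made by the authors with Cell Ranger 3.0.2 on mm10, and cells were filtered and annotated by them with Seurat 3.2.0. The fewest genes in an annotated cell were 800 and the highest mitochondrial share was 9.99%. No doublet step is given in the sources used here. Counts of annotated astrocytes were summed per library and tested with edgeR 4.0.16 in R 4.3.3 (quasi-likelihood, TMM, filterByExpr with a minimum count of 10, tissue and genotype as terms, Benjamini-Hochberg adjustment), and tested on simulated data. Differences from free RNA or from other cell types were interactions with the library as a block. The members and lists were chosen with earlier results of these data known. Genes were named from the 12 largest calls per direction that also differed from free RNA, and from up to 5 called genes per list. Setd1a, all identity and metallothionein genes and the smallest interaction p-values could also be named. Slc25a18, Apoe, Hbb-bt and Npy are marked in the text as named after their values were seen. Further genes, such as Thrsp, Rarres2, Emx2, Abca1, Lrp1 and Srebf2, fall outside these rules and carry no mark. Alternatives included DESeq2 1.42.0. Libraries are pools of 2 mice, so p-values measure the spread between pools; intervals and floors (3 UMIs) cover counting error only. Deviations of same-numbered libraries correlated at 0.31 in PFC and 0.18 in striatum between genotypes, and at 0.0087 to 0.11 across tissues. Some items are not reported here.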

Additional observations from a re-analysis of the deposited data

Results flagged for a closer look

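Over 86 sets of 4 libraries, 1 gene in 1 tissue each, 6 held a library apart from the other 3 by Dixon's criterion, and chance gives about 1 in 20. In striatum Setd1a+/- replicate 2, which had 21 remaining astrocytes, C4b was at 143.7 CPM (others 32.7 to 43.4), Msmo1 at 246.4 CPM (others 488 to 529.5), Penk at 780.2 CPM (others 123 to 225) and Unc13c at 41.06 CPM (others 14.3 to 16.5). The remaining astrocytes of that library held 48708 UMIs in all. The Unc13c value lies below the floor of 3 UMIs and is no evidence of a library apart, and that of C4b rests on few UMIs. In PFC WT replicate 2, 6330403K07Rik was at 260.3 CPM (others 29.0 to 59.8) and Penk at 3.666 CPM (others 0). The Penk value in PFC is 1 UMI, and with the other libraries at 0 it meets the criterion by construction, so it is no evidence of a library apart.

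For 14 of 38 named genes the tissue difference in astrocytes differed from that in the other non-neuronal types by the interaction test, as did 269 of all 4742 genes tested (5.67%). The 38 were chosen for being called between the tissues, so the shares are not comparable. The astrocyte difference was more toward striatum for Crym (5.573 on the log2 scale), Cyba (3.786) and Sparc (1.35). It was more toward PFC for Ptchd4 (-5.304), Unc13c (-2.572), St6galnac5 (-2.563), Mir124-2hg (-2.022), Gria2 (-1.949), Cyp51 (-1.692), Cdkl3 (-1.642), Foxn2 (-1.314), Sqle (-1.2), Hmgcs1 (-1.085) and Msmo1 (-0.7659).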

How the results depend on the processing

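Every called gene that could be tested kept its direction under each alternative run, and over 106 single-gene results 1966 of 2434 values stayed on their side of the threshold, 468 missed it and 0 reversed. Over all annotated astrocytes the 530 calls became 104 without the ependymal-like cells, 1401 without a filter on low counts, 176 at a minimum count of 50, 190 in WT and 243 in Setd1a+/- libraries alone, 94 with cells thinned to 1000 UMIs, 310 with free RNA subtracted, 9 of 292 genes without cells holding 3 UMIs of another type, 106 without the 5% of cells with most UMIs, and 48 without the 25% with most UMIs of other types. Leaving out a library gave 306 to 683. Scaling by library totals gave 408 striatal and 127 PFC calls in place of 329 and 201. Without the ependymal-like cells, an alternative chosen after seeing the data, the 104 calls became 323 without a filter, 56 at a minimum count of 50, 34 in WT and 4 in Setd1a+/- libraries alone, 250 against PFC replicate 1 and 53 against PFC replicate 2 libraries alone, 60 with thinned cells, where 68 of the 104 could be tested, and 9 of 292 genes without cells holding 3 UMIs of another type, where 10 of the 104 could be tested. The last of these settings left out most astrocytes, keeping 1 in striatum Setd1a+/- replicate 2 and 7 to 35 in each other library. In it 4 of the 10 genes stayed called. Leaving out a library gave 45 to 132. DESeq2 gave 460 and 107 calls.

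With the replicate number as a block across tissues 609 and 235 genes were called, and with the replicate block within tissue 772 and 384. The block left 0 interaction calls, and gave an exact permutation p = 0.722 for the astrocyte share (-1.15) and 0.556 for the UMIs per astrocyte (85.3), with 0.0556 the smallest possible.

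The 648 genes that differed from free RNA became 280 without the ependymal-like cells and 425 to 664 without a library, the lowest without PFC Setd1a+/- replicate 2. The 789 that differed from other types became 269 and 485 to 790, the lowest without PFC WT replicate 1. The interaction of genotype and tissue had 2 calls without a filter, the globin gene Hbb-bt and the neuropeptide gene Npy, named after their values were seen, and 0 to 0 without a library. The difference in astrocyte share, -1.15 points, was 0.793 over non-neuronal cells (exact permutation p = 0.8286) and -2.45 to 0.492 without a library, positive without PFC Setd1a+/- replicate 2 (0.492) or striatum Setd1a+/- replicate 2 (0.247). The difference in UMIs per astrocyte, 85.3, ranged from -5.83, without striatum Setd1a+/- replicate 2, to 147. The causes were not tested. The depth of 21 cells in the smallest library limits every comparison of single genes at low levels.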
